A study of Mus musculus with 15 samples.

Results

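The comparison described here set 3 forebrain libraries of the IR_BMT group against 3 of the PLX3X_CD30 group, 6 of the 15 bulk RNA libraries of a study of macrophages that derive from monocytes and settle in the mouse brain. Members were chosen by library name: those of the IR_BMT group end with IR and their titles name IR-BMT, and those of the PLX3X_CD30 group carry that name while their titles say only that the mice were PLX treated. Untreated forebrain (NT, 3 libraries) served as a common scale for levels. All mice were of the wild-type genotype, and the labels give no age, sex, dose or time. IR-BMT, PLX, 3X and CD30 are not spelled out there. Nothing in them ties each library to its own animal; the spread behind every p-value is the one between these libraries and may in part be technical.

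Microglia are the resident macrophages of the brain parenchyma. They arise before birth from the yolk sac, depend on the receptor CSF1R for survival and renew themselves locally. When they are lost and the niche is open, monocyte-derived cells from the bone marrow can enter, take up a microglia-like position and express much of the common macrophage program, while a set of microglia-restricted genes such as Sall1, P2ry12 and Siglech stays low in them. Border-associated macrophages occupy the meninges and the spaces around vessels.

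Levels are given as TMM-normalised CPM, that is, relative to the library's total. A gene was called higher or lower in IR_BMT when edgeR's quasi-likelihood test gave a Benjamini-Hochberg adjusted p under 0.05 over all 21780 genes tested. By that rule 1662 genes (7.63%) were higher and 1936 (8.89%) lower in IR_BMT than in PLX3X_CD30. Of these, 42 were at least 2-fold higher and 149 at least 2-fold lower. The total of 3598 became 1975 without IR_BMT replicate 2, 2123 without IR_BMT replicate 3 and 2053 without PLX3X_CD30 replicate 2. Total counts were 33304212, 37170431 and 39549891 in the IR_BMT libraries and 38094395, 38414662 and 38993569 in the PLX3X_CD30 libraries.

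A property of the transcripts went with these calls across the whole table. With genes ordered by transcript GC content in 10 equal groups, the median log2 fold change ran from -0.34 in the lowest group (median 38.95% GC, with 5 genes higher and 649 lower) to 0.24 in the highest (59.5% GC, with 653 higher and 8 lower). Against the NT mean, the difference between the highest and the lowest of these groups was 0.518, 0.734 and 0.773 in IR_BMT replicates 1, 2 and 3, and 0.121, 0.0666 and 0.127 in PLX3X_CD30 replicates 1, 2 and 3. The IR_BMT libraries stood apart from every other library, whose differences did not pass 0.187. The fit was therefore repeated with a per-library offset on transcript length and GC content, which brought the medians of all 10 groups to between 0.03 and 0.07. It called 956 genes higher (4.39%) and 258 lower (1.18%), of which 765 had also been called in the same direction without it. The median log2 fold change over all genes was 0.05 with the offset and -0.01 without it. Medians of gene groups with the offset are to be read against 0.05. Whether the GC trend arose in the tissue or in the making of the libraries was not tested. Counts or adjusted p-values with the offset are given for most gene groups. They are not given for MHC class I and II, border-associated macrophage, choroid plexus, striatal, thalamic, T and natural killer, neutrophil and erythrocyte genes. None of these genes was called by edgeR over 15 libraries, with or without the offset. Counts in a gene group are to be read against the shares of all genes. These were 7.63% higher and 8.89% lower without the offset, and 4.39% and 1.18% with it. In the fit on the 6 libraries compared they were 12.4% and 12%, and 10.7% and 2.77% with the offset added.

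**Figure D1:**
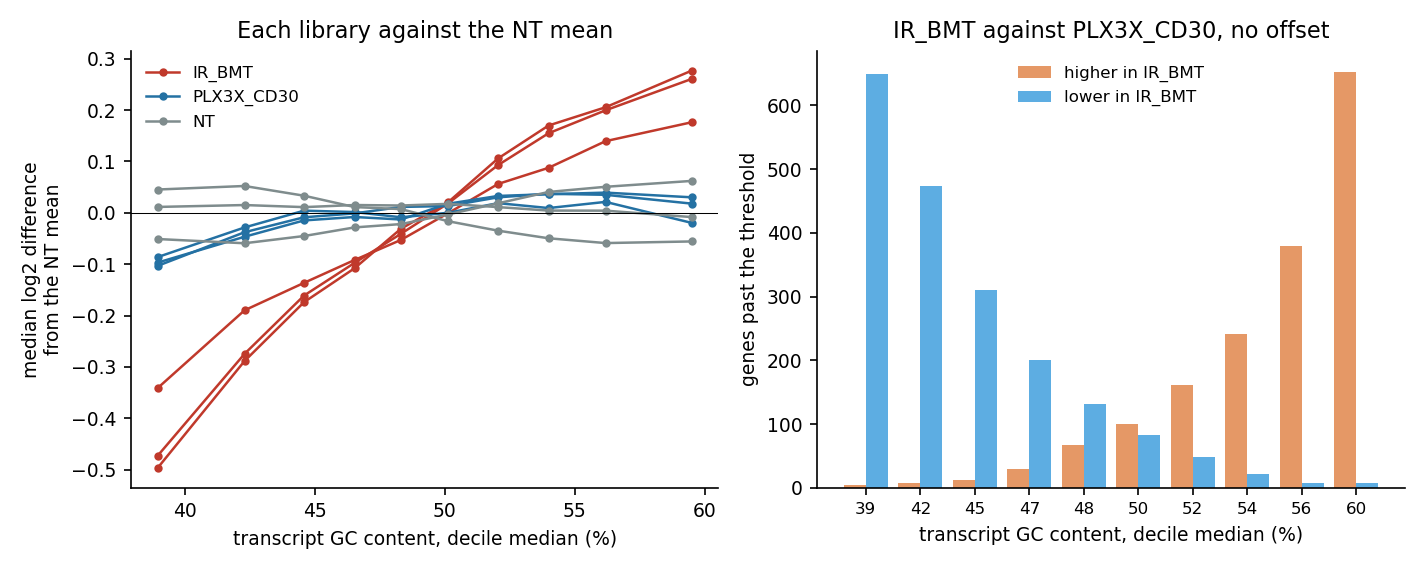
Left, the median log2 difference of each library from the NT mean (y axis) in 10 equal groups of genes ordered by transcript GC content (x axis, %), with 1 line a library in IR_BMT, PLX3X_CD30 and NT. Right, the number of genes called in each of these groups without the offset. The 3 IR_BMT lines climb from the left to the right edge, and the calls are lower genes at low GC content (649 in the first group) and higher genes at high GC content (653 in the last).

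Both groups carried macrophage transcripts at part of the NT level. The summed level of 34 genes shared by microglia and other macrophages was 456, 432 and 411 CPM in IR_BMT, 413, 407 and 421 CPM in PLX3X_CD30 and 747, 895 and 918 CPM in NT. The median member stood at 55.6% of its NT mean in IR_BMT and at 45.9% in PLX3X_CD30. Both groups overlapped in this sum, and both lay below all NT libraries. In bulk tissue, fewer cells of a type and less RNA per cell cannot be told apart.

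Of 18 microglia-restricted genes, 2 were higher in IR_BMT in the edgeR fit on 15 libraries, near the share of all genes called higher (7.63%). None was lower, and 16 did not pass. The list's median log2 fold change was 0.23, against -0.01 over all genes tested. With the offset the count of higher genes was again 2, against 4.39% of all genes, with a median of 0.23 (0.05 over all genes). DESeq2 called 4 of the 18 higher, where 2094 of all 21780 genes were higher. The fit on the 9 libraries of IR_BMT, PLX3X_CD30 and NT called 5 of them higher, where 1289 of 21056 genes were higher.
Crybb1 encodes a beta-crystallin that marks mature microglia (chr5:112255815-112269585, plus strand, mm10). It was at 3.62, 2.67 and 3.20 CPM in IR_BMT, 1.25, 0.600 and 1.16 CPM in PLX3X_CD30 and 5.43, 7.30 and 6.63 CPM in NT. The 3 groups did not overlap, with IR_BMT at 49.0% and PLX3X_CD30 at 15.5% of the NT mean. The log2 fold change of IR_BMT over PLX3X_CD30 was 1.65 ± 0.25 (SE), with an adjusted p of 0.000295 in edgeR, and 1.40 with the offset (adjusted p = 0.00382).
Fcrls, an Fc receptor-like gene of mouse microglia (chr3:87250758-87263738, minus strand), was at 18.9, 18.0 and 16.8 CPM in IR_BMT and 9.78, 6.73 and 9.65 CPM in PLX3X_CD30, against 23.1, 28.4 and 29.9 CPM in NT. Every IR_BMT library was above every PLX3X_CD30 library, and its log2 fold change was 1.04 ± 0.23 (adjusted p = 0.00851; 1.15 and 0.0131 with the offset). Both genes passed in all 15 alternative fits.

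The other defining microglial genes were not called. P2ry12, a purinergic receptor of resting microglia, was at 14.6, 13.6 and 11.7 CPM in IR_BMT, 13.3, 11.8 and 10.5 CPM in PLX3X_CD30 and 40.9, 41.9 and 37.7 CPM in NT. Its log2 fold change between the treated groups was 0.17 ± 0.20 (adjusted p = 0.633). Siglech, a sialic acid-binding lectin, averaged 7.33 ± 0.465 CPM in IR_BMT and 7.31 ± 0.851 CPM in PLX3X_CD30, against 19.0 ± 3.11 CPM in NT (SD, n = 3 each). For these receptors the treated groups overlapped.
Tmem119, a membrane protein of microglia, was at 27.0, 23.8 and 22.5 CPM in IR_BMT and 20.9, 19.6 and 19.3 CPM in PLX3X_CD30, groups that did not overlap, with a log2 fold change of 0.29 ± 0.22 (adjusted p = 0.432). Sall1, a transcription factor that keeps microglial identity, was at 12.9, 18.3 and 18.9 CPM in IR_BMT and 12.8, 11.9 and 17.7 CPM in PLX3X_CD30. The groups overlapped, and the adjusted p was 0.767.

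None of the 34 shared macrophage genes was called by edgeR in the fit on all 15 libraries, with or without the offset, or by DESeq2, and 2 had an unadjusted p under 0.05. That fit takes its estimate of spread from all 5 groups. In a fit on the 6 libraries compared, which called 12.4% of 19892 genes higher and 12% lower, 4 of the 34 were higher and 2 lower; with the offset added to that fit, which called 10.7% higher and 2.77% lower, the counts were again 4 and 2. Over 15 libraries the median log2 fold change of the 34 genes was 0.20, near that of the microglia-restricted list (0.23). Of the 34, 26 were positive, against 48.78% of all genes. With the offset the median of the 34 was 0.16. Lysosomal and receptor genes were found in both directions.
Csf1r, the growth factor receptor on which microglia depend, was at 48.8, 46.8 and 46.8 CPM in IR_BMT, 55.6, 53.7 and 55.6 CPM in PLX3X_CD30 and 146, 170 and 179 CPM in NT. The treated groups did not overlap, and the adjusted p was 0.743 over 15 libraries and 0.00827 over 6 (log2 fold change -0.21 and -0.22).
Ctss, the lysosomal protease cathepsin S, was at 30.0, 24.9 and 22.5 CPM in IR_BMT and 36.1, 43.5 and 44.7 CPM in PLX3X_CD30, a log2 fold change of -0.69 (adjusted p = 0.190 over 15 libraries and 0.00120 over 6).
Laptm5, a lysosomal membrane protein of blood cells, went the other way, at 50.7, 46.1 and 39.6 CPM in IR_BMT and 31.3, 26.8 and 30.3 CPM in PLX3X_CD30 (log2 fold change 0.63; adjusted p = 0.220 over 15 libraries and 0.000127 over 6). Cx3cr1, the fractalkine receptor, was at 37.2, 31.8 and 29.6 CPM in IR_BMT and 28.0, 25.4 and 25.9 CPM in PLX3X_CD30 (adjusted p = 0.554 over 15 libraries and 0.0106 over 6). Aif1, the calcium-binding protein IBA1, was at 3.53, 3.26 and 3.25 CPM in IR_BMT and 3.73, 4.07 and 3.82 CPM in PLX3X_CD30, with adjusted p-values of 0.717 and 0.349. Ctss and Csf1r were thus lower, and Laptm5 and Cx3cr1 higher, in IR_BMT in the 6-library fit, and none of the 4 passed in the 15-library fit. In the 6-library fit 5 of 18 microglia-restricted genes were higher, against 12.4% of all genes, and none was lower. They were Crybb1, Fcrls, Upk1b, Slc2a5 and Tmem119. With the offset in that fit 6 were higher, against 10.7% of all genes. There Tmem119 dropped out, and P2ry12 (0.56) and P2ry13 (0.43) were added.

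**Figure D2:**
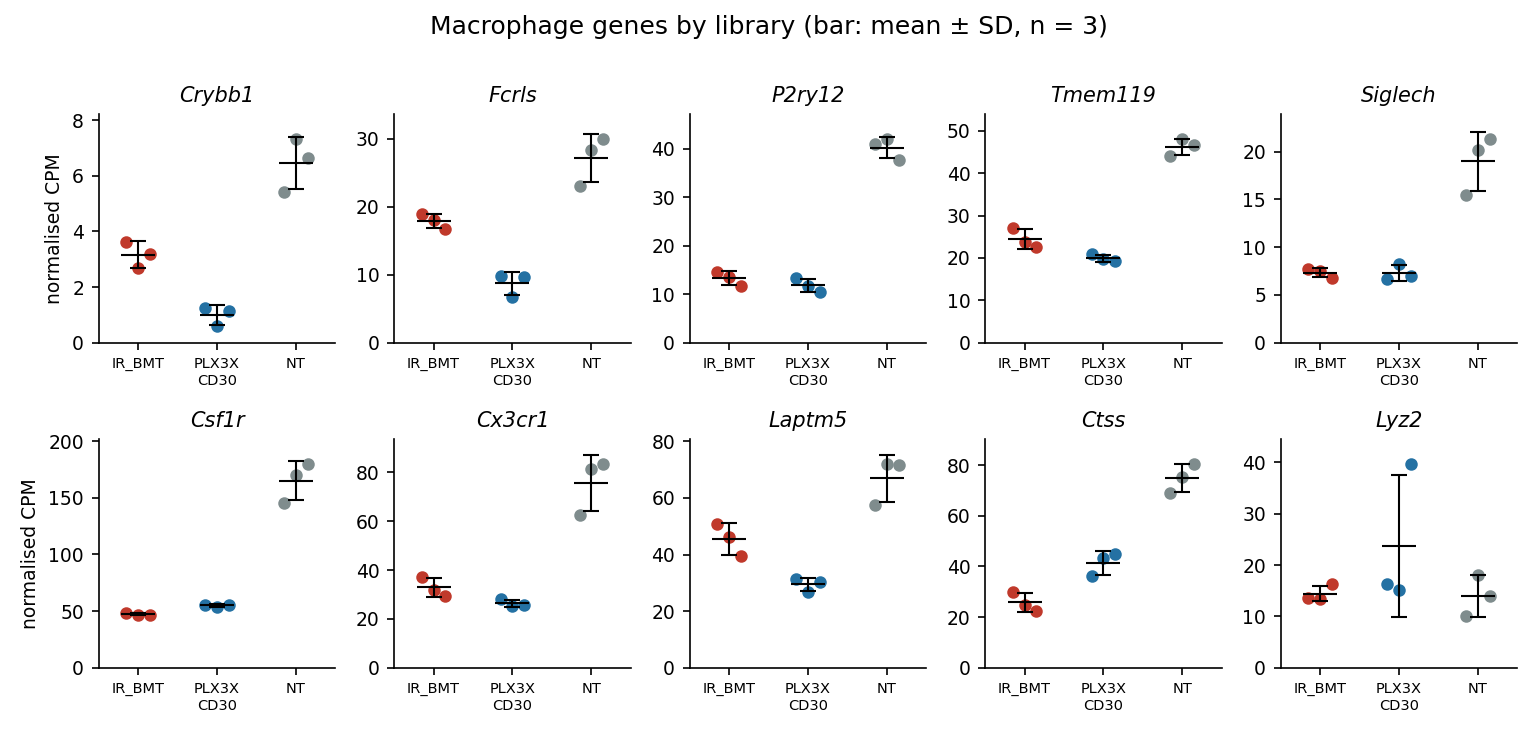
Normalised CPM (y axis, from 0) of 10 macrophage genes in each library of IR_BMT, PLX3X_CD30 and NT, with the mean and SD of 3 libraries. Crybb1 and Fcrls lie higher in IR_BMT than in PLX3X_CD30, P2ry12 and Siglech overlap between the groups, Laptm5 and Ctss separate in opposite directions, and PLX3X_CD30 replicate 3 stands alone in Lyz2 at 39.6 CPM.

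Genes typical of macrophages that come from the bone marrow did not separate the groups. None of 19 tested members of that list (24 listed) was called by edgeR, with or without the offset, or by DESeq2; 2 had an unadjusted p under 0.05, and the median log2 fold change was -0.23. Ms4a7, a membrane protein high in monocyte-derived brain macrophages, was at 0.693, 0.306 and 0.472 CPM in IR_BMT and 0.495, 0.209 and 1.08 CPM in PLX3X_CD30 (adjusted p = 0.800). Lyz2, the myeloid lysozyme, was at 13.7, 13.5 and 16.2 CPM in IR_BMT and 16.4, 15.1 and 39.6 CPM in PLX3X_CD30. The log2 fold change of Lyz2, -0.71 (adjusted p = 0.181), ranged from -0.95 to -0.12 when each library was left out in turn, so it depended on PLX3X_CD30 replicate 3. Lyz2 has a close paralogue, and its reads are uncertain for that reason.
Of 12 tested border-associated macrophage genes none was called by edgeR over 15 libraries, 1 had an unadjusted p under 0.05, and DESeq2 called 1 higher. Mrc1, the mannose receptor of these cells, was at 3.37, 2.51 and 2.94 CPM in IR_BMT and 3.08, 1.62 and 2.39 CPM in PLX3X_CD30 (adjusted p = 0.586). Stab1, a scavenger receptor, was at 10.2, 10.4 and 10.0 CPM in IR_BMT and 7.64, 5.61 and 6.55 CPM in PLX3X_CD30, groups that did not overlap (adjusted p = 0.0646 over 15 libraries and 0.00132 over 6).

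Antigen presentation and interferon genes gave few calls. None of 8 MHC class II genes passed in edgeR or DESeq2, and none had an unadjusted p under 0.05. Cd74, the invariant chain, was at 12.2, 11.4 and 13.5 CPM in IR_BMT and 10.5, 7.41 and 23.8 CPM in PLX3X_CD30, where replicate 3 was again the highest library. None of 16 MHC class I genes passed in either tool over 15 libraries, and 3 had an unadjusted p under 0.05. The 6-library fit called 2 higher, near the share of all genes (12.4%), and none with the offset added to it. In the 6-library fit 6 of 35 interferon-stimulated genes were higher, against 12.4% of all genes. With the offset added to it 4 were, near the share of all genes (10.7%). Over 15 libraries 1 of the 35 was higher, against 7.63% of all genes. That gene, Ifi27, was at 42.1, 44.0 and 45.0 CPM in IR_BMT and 33.6, 34.7 and 36.6 CPM in PLX3X_CD30 (log2 fold change 0.32 ± 0.09, adjusted p = 0.0173; 0.135 with the offset), a call that was lost when any of 4 of the 6 libraries was left out.
Among 19 tested genes of disease-associated microglia and lipid handling, Apoe was higher and Soat1 lower. Apoe, the main lipid carrier of the brain, which astrocytes also make, was at 2270, 2607 and 2688 CPM in IR_BMT and 1983, 1834 and 2161 CPM in PLX3X_CD30 (log2 fold change 0.34 ± 0.08, adjusted p = 0.00817; 0.196 with the offset), and it did not pass without PLX3X_CD30 replicate 2. Soat1, the enzyme that esterifies cholesterol, changed by -0.30 ± 0.07 (adjusted p = 0.00512; 0.241 with the offset). Of 11 tested genes of complement and Fc signalling 1 was lower and none was higher, and none passed with the offset. Among 19 chemokine and cytokine genes Il33, an alarmin of oligodendrocytes and astrocytes, was lower (-0.33, adjusted p = 0.00203; 0.754 with the offset).

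Of 18 genes of mature oligodendrocytes and myelin, 8 were lower in IR_BMT, against 8.89% of all genes, and 1 was higher, against 7.63%. The median log2 fold change was -0.16. With the offset 3 (Mal, Mog and Mobp) were lower, against 1.18% of all genes, and none was higher, with a median of -0.12. Without IR_BMT replicate 2 the count of lower genes was 4. Bcas1, which marks oligodendrocytes as they begin to myelinate (chr2:170346991-170427845, minus strand), was at 71.9, 65.9 and 69.5 CPM in IR_BMT, 106, 104 and 97.7 CPM in PLX3X_CD30 and 181, 135 and 136 CPM in NT. No IR_BMT library reached the PLX3X_CD30 or NT range. Its log2 fold change was -0.57 ± 0.09 (adjusted p = 0.000559), and -0.52 with the offset (adjusted p = 0.00434). It was the 1 call among 12 genes of newly formed oligodendrocytes, near the share of all genes called lower (8.89%).
Mal, a proteolipid of compact myelin (chr2:127633226-127656695, minus strand), was at 79.0, 83.8 and 86.4 CPM in IR_BMT and 114, 115 and 128 CPM in PLX3X_CD30, a log2 fold change of -0.52 ± 0.08 (adjusted p = 0.000329; 0.00324 with the offset). Mog, a glycoprotein of the outer myelin surface, was at 42.9, 41.4 and 45.7 CPM in IR_BMT and 56.9, 56.1 and 58.0 CPM in PLX3X_CD30 (-0.40 ± 0.08, adjusted p = 0.00310; 0.00961 with the offset). Bcas1, Mal and Mog were lower in every alternative.
Mbp, myelin basic protein, was at 2773, 2905 and 3067 CPM in IR_BMT, 3336, 3458 and 3502 CPM in PLX3X_CD30 and on average 4528 CPM in NT (-0.24 ± 0.07, adjusted p = 0.0219; 0.0883 with the offset and 0.0629 in the 9-library fit). Its call was lost when any of 4 of the 6 libraries was left out. Aspa, Ugt8a, Ermn and Mobp were further lower members, and Gal3st1, a sulfatide synthase, was the higher one (0.27, adjusted p = 0.0193; 0.389 with the offset).

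Of 15 genes of oligodendrocyte precursors, 4 were higher, against 7.63% of all genes, and none lower. With the offset 2 were higher, against 4.39%, and 2 were higher without PLX3X_CD30 replicate 2. Cspg4, the NG2 proteoglycan of precursors and pericytes (chr9:56865033-56899870, plus strand), was at 34.1, 31.8 and 30.3 CPM in IR_BMT, 22.1, 21.1 and 21.4 CPM in PLX3X_CD30 and 17.6, 21.2 and 22.9 CPM in NT. IR_BMT lay above both other groups without overlap (log2 fold change over PLX3X_CD30 0.58 ± 0.09, adjusted p = 0.000332; 0.0121 with the offset). Matn4, a matrilin of the extracellular matrix, was at 16.4, 19.5 and 19.0 CPM in IR_BMT and 11.3, 10.7 and 14.0 CPM in PLX3X_CD30 (0.61 ± 0.15, adjusted p = 0.00931; 0.0102 with the offset), a call lost without PLX3X_CD30 replicate 2. The transcription factors Olig1 (0.32, adjusted p = 0.00348) and Olig2 (0.30, adjusted p = 0.0378) were higher but did not pass with the offset (0.202 and 0.309). Pdgfra, the growth factor receptor that defines precursors, was at 63.6, 61.8 and 58.0 CPM in IR_BMT and 55.5, 55.7 and 54.4 CPM in PLX3X_CD30, with an adjusted p of 0.208.

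Of 20 homeostatic astrocyte genes 3 were higher, against 7.63% of all genes. With the offset 4 were higher, against 4.39%, and Gja1, a gap junction protein, was added. Ntsr2, a neurotensin receptor, was at 193, 226 and 218 CPM in IR_BMT and 172, 165 and 175 CPM in PLX3X_CD30 (0.32 ± 0.07, adjusted p = 0.00446; 0.00485 with the offset). Fgfr3 (0.34 ± 0.08, adjusted p = 0.00560; 0.0446 with the offset) and the transcription factor Sox9 (0.31 ± 0.08, adjusted p = 0.0123; 0.0114 with the offset) were higher too, Sox9 not without PLX3X_CD30 replicate 2. Of 24 reactive astrocyte genes none was called by edgeR over 15 libraries without the offset, and DESeq2 called 1 lower; the 6-library fit called 1 higher and 2 lower, and without IR_BMT replicate 1 there was 1 higher; 3 had an unadjusted p under 0.05, and Vim, a filament protein, was higher with the offset (0.49, adjusted p = 0.0315). Gfap, the filament protein of reactive astrocytes, was at 276, 365 and 376 CPM in IR_BMT and 236, 252 and 269 CPM in PLX3X_CD30 (adjusted p = 0.227), groups that did not overlap.

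**Figure D3:**
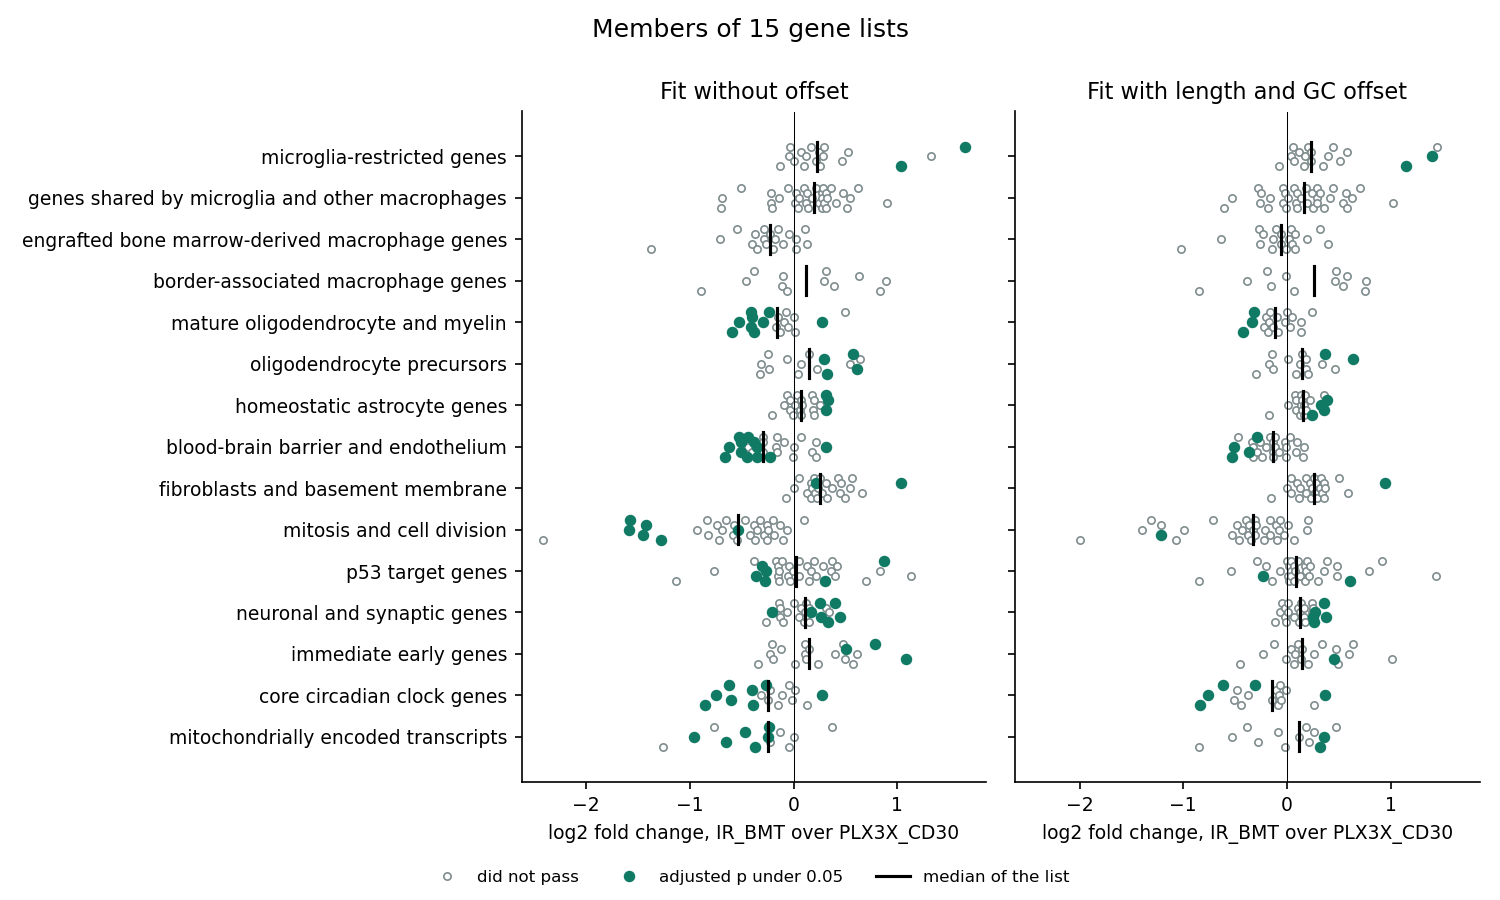
Log2 fold change of IR_BMT over PLX3X_CD30 (x axis) of each tested member of 15 gene lists, without (left) and with (right) the length and GC offset; filled points had an adjusted p under 0.05, open points did not, and the vertical bar is the list's median. The lower members of the endothelial and mitochondrially encoded lists thin out with the offset (11 against 4 and 6 against 0), while the 2 higher microglia-restricted genes are filled in both panels.

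Of 27 tested genes of the endothelium and the blood-brain barrier 11 were lower in IR_BMT, against 8.89% of all genes. Another 1 was higher, against 7.63%, and the median was -0.29. With the offset 4 were lower, against 1.18%, and none higher, with a median of -0.14. The count of lower genes was 6 without IR_BMT replicate 3 or PLX3X_CD30 replicate 2 and 7 without PLX3X_CD30 replicate 1. The summed level of the list overlapped between the groups. Slco1a4, an organic anion carrier of the brain endothelium (chr6:141805440-141856199, minus strand), was at 31.7, 32.3 and 27.4 CPM in IR_BMT, 46.6, 46.3 and 48.1 CPM in PLX3X_CD30 and 41.6, 44.3 and 41.4 CPM in NT. It was lower in IR_BMT than in either other group without overlap, with a log2 fold change over PLX3X_CD30 of -0.63 ± 0.07 (adjusted p = 2.83e-05) that became -0.29 with the offset (adjusted p = 0.0204).
Ocln, the tight junction protein occludin, was at 7.34, 7.52 and 6.90 CPM in IR_BMT and 11.3, 11.9 and 11.1 CPM in PLX3X_CD30 (-0.66 ± 0.11, adjusted p = 0.000793; 0.0399 with the offset). Ly6c1, a surface antigen of mouse brain endothelium, was at 17.1, 20.2 and 17.6 CPM in IR_BMT and 27.2, 26.4 and 25.6 CPM in PLX3X_CD30, with nearly the same change without (-0.53) and with (-0.53) the offset. Flt1, a VEGF receptor, was the other lower member with the offset (-0.51, adjusted p = 0.00532). Cldn5, the main claudin of the barrier, was at 33.1, 36.8 and 35.5 CPM in IR_BMT and 34.5, 32.7 and 33.0 CPM in PLX3X_CD30 (adjusted p = 0.515), and Plvap, a protein of fenestrated endothelium, was higher without the offset (0.32, adjusted p = 0.0345) but not with it (0.405).
Of 13 genes of pericytes and smooth muscle, Rgs5 was lower (-0.45, adjusted p = 0.00213) and Notch3 higher (0.54, adjusted p = 0.0189), and neither passed with the offset (0.438 and 0.169). Of 25 genes of fibroblasts and basement membrane 24 had a positive log2 fold change without the offset, against 48.78% of all genes. The list's median was 0.26 without and with the offset. Its median GC content was 54.6%, and the nearest GC group of all genes (54.0%) had a median of 0.12 without the offset. Of the 25, 2 were called higher, near the share of all genes (7.63%). Fbn1, the microfibril protein fibrillin-1 (chr2:125300594-125507993, minus strand), was at 9.93, 9.22 and 8.31 CPM in IR_BMT, 4.25, 3.34 and 5.75 CPM in PLX3X_CD30 and 4.19, 5.22 and 3.28 CPM in NT. IR_BMT stood above both other groups without overlap, with a log2 fold change over PLX3X_CD30 of 1.04 ± 0.19 (adjusted p = 0.00149; 0.95 and 0.0075 with the offset). Col4a2, a basement membrane collagen, was higher without the offset (0.22, adjusted p = 0.0404) and at -0.00154 with it. In the 6-library fit 11 of the 25 were higher, against 12.4% of all genes, and 8 with the offset added to it, against 10.7%.

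Markers of neighbouring tissue varied within the groups. Ttr, the transthyretin of the choroid plexus, was at 448, 8.10 and 8.94 CPM in IR_BMT replicates 1, 2 and 3 and at 8.03, 4.64 and 4.34 CPM in PLX3X_CD30 replicates 1, 2 and 3. The summed level of 13 choroid plexus genes was 1299, 368 and 344 CPM in IR_BMT and 410, 382 and 383 CPM in PLX3X_CD30; none was called by edgeR or DESeq2, and none had an unadjusted p under 0.05. Without IR_BMT replicate 1, 3528 genes were called in all, Crybb1, Fcrls, Bcas1, Mal, Mog, Fbn1, Slco1a4, Ocln and Ly6c1 still passed, and 9 endothelial, 6 myelin and 5 mitosis genes were lower. The summed level of 15 striatal neuron genes, which moves with the share of striatum in a dissection, was 2831, 2819 and 4106 CPM in IR_BMT and 4215, 4914 and 3239 CPM in PLX3X_CD30, so the groups overlapped and IR_BMT replicate 3 and PLX3X_CD30 replicate 3 lay apart from their groups. No striatal or thalamic gene was called by edgeR over 15 libraries; 4 and 1 had an unadjusted p under 0.05, and DESeq2 called 2 striatal genes lower. The 6-library fit called 1 thalamic gene higher and 1 lower. The part of dissection in the other results was not tested.

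**Figure D4:**
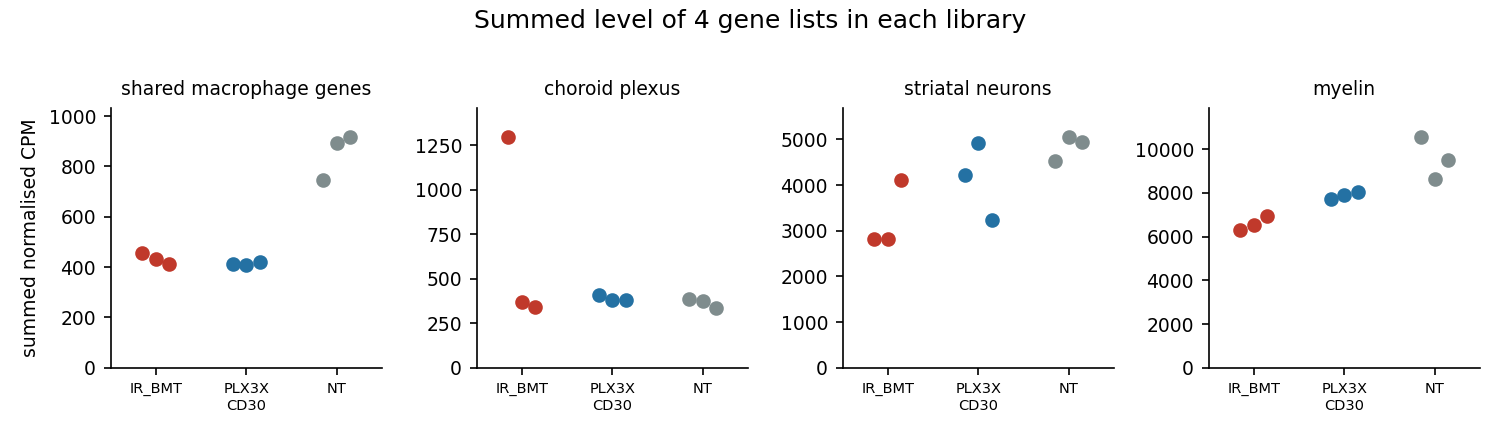
Summed normalised CPM (y axis, from 0) of 4 gene lists in each library of IR_BMT, PLX3X_CD30 and NT. The shared macrophage sum overlaps between IR_BMT and PLX3X_CD30 and is lower than in NT, IR_BMT replicate 1 stands alone in the choroid plexus sum at 1299 CPM, the striatal sum varies within both treated groups, and the myelin sum is lowest in IR_BMT.

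Of 33 genes of mitosis and cell division 6 were lower in IR_BMT, against 8.89% of all genes, and none was higher. Without the offset 32 of the 33 had a negative log2 fold change, while 48.78% of all genes had a positive one. The list's median was -0.53, and its median GC content was 45.3%. The nearest GC group of all genes (44.6%) had a median of -0.13. With the offset 1 of the 33 was lower and the list's median was -0.33. By DESeq2, without IR_BMT replicate 2 and without IR_BMT replicate 3, 3 were lower. Levels were low, with 18 of 33 above 1 CPM in NT. Top2a, the topoisomerase that untangles chromosomes in dividing cells (chr11:98992943-99024189, minus strand), was at 0.756, 0.557 and 0.682 CPM in IR_BMT, 1.49, 1.96 and 2.00 CPM in PLX3X_CD30 and 1.57, 1.41 and 2.21 CPM in NT. IR_BMT lay below both other groups without overlap, and the log2 fold change over PLX3X_CD30 was -1.45 ± 0.28 (adjusted p = 0.00172; -1.22 and 0.0131 with the offset).
Mki67, the proliferation antigen, was at 0.630, 0.446 and 0.262 CPM in IR_BMT, 1.10, 1.04 and 1.08 CPM in PLX3X_CD30 and on average 2.12 CPM in NT (-1.28 ± 0.38, adjusted p = 0.0260; 0.0554 with the offset). Its call was lost when any of 5 of the 6 libraries was left out. Cenpf and Spc25, of the kinetochore, and Ect2, a regulator of cytokinesis, were below 0.6 CPM in each IR_BMT library and above 0.6 CPM in each PLX3X_CD30 library, with changes of -1.57, -1.59 and -1.42. Anln, the sixth lower member, is also made by myelinating oligodendrocytes and was far more abundant, at 19.9, 16.8 and 18.3 CPM in IR_BMT and 26.4, 26.6 and 26.6 CPM in PLX3X_CD30.

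Promoters of cell division genes are known to hold the cell cycle homology region, CHR, with the letters TTTGAA. The sequences of Top2a and Mki67 are shown because they are the best-known of the lower members. They run 5′ to 3′ from 250 bases before to 50 bases after the start of the gene (RefSeq, GRCm38.p6), and capitals mark TTTGAA on either strand.
Top2a (chr11:99024140-99024439, minus strand): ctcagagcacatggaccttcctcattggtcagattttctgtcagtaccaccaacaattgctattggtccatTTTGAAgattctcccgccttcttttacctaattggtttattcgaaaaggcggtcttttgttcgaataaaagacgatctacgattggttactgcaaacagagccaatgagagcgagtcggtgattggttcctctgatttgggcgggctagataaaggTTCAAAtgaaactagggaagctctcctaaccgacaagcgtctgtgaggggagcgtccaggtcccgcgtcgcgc
Mki67 (chr7:135716330-135716629, minus strand): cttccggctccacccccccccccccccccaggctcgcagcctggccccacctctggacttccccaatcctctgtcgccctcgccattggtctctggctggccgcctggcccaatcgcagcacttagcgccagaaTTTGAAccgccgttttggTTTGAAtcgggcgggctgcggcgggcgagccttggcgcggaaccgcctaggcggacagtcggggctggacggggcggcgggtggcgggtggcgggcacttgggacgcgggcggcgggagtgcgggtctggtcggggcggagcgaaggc
TTTGAA or its reverse complement lay in the promoter of 6 of 6 lower members and in 15 of 22 matched members that were not called, against 17.9% of the 32851 promoters of the table. Most members of the list that were not called thus held these letters too.

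Of 34 target genes of p53, the transcription factor activated by DNA damage, 2 were higher and 4 lower, near the shares of all genes (7.63% and 8.89%), and 1 was higher and 1 lower with the offset. No more than 1 was lower when any of the 6 libraries was left out. Bbc3, which encodes the cell death inducer PUMA (chr7:16308393-16318205, plus strand), was at 15.0, 15.8 and 16.7 CPM in IR_BMT, 8.06, 7.70 and 10.2 CPM in PLX3X_CD30 and 8.62, 7.90 and 11.8 CPM in NT. It was higher in IR_BMT than in either other group without overlap, by a log2 fold change of 0.87 ± 0.16 over PLX3X_CD30 (adjusted p = 0.00125; 0.60 and 0.0166 with the offset). Phlda3, an inhibitor of AKT signalling, was higher without the offset (0.30, adjusted p = 0.0140; 0.650 with it). Cdkn1a, the cell cycle inhibitor p21, was at 28.6, 31.6 and 30.3 CPM in IR_BMT and 18.8, 22.5 and 27.4 CPM in PLX3X_CD30, a difference that did not pass (adjusted p = 0.438 over 15 libraries and 0.0253 over 6). The lower members were Plk2, Rrm2b, Trp53 and Polk, none of which passed with the offset, where Bax, a pore-forming death protein, was the lower one (-0.23, adjusted p = 0.0331). Among 28 genes of DNA replication Pola1 was lower (-0.65, adjusted p = 0.00413) and Chaf1a higher (0.46, adjusted p = 0.0208), and neither passed with the offset. Of 7 tested genes of senescence and irradiation secretion, Igfbp5 was higher (0.19, adjusted p = 0.0176; 0.0602 with the offset).

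Of 31 genes of neurogenesis and immature neurons 4 were higher and 2 lower, against 7.63% and 8.89% of all genes. With the offset 5 were higher and 1 lower, against 4.39% and 1.18%. Without IR_BMT replicate 2, PLX3X_CD30 replicate 2 or PLX3X_CD30 replicate 3, 2 were higher. Tubb3, a neuronal tubulin, was at 390, 419 and 440 CPM in IR_BMT and 313, 312 and 325 CPM in PLX3X_CD30 (0.39 ± 0.08, adjusted p = 0.00275; 0.0343 with the offset), and Tubb2b changed alike (0.41, adjusted p = 0.00649). Sox11, a transcription factor of newborn neurons, was at 8.29, 10.7 and 8.73 CPM in IR_BMT and 14.2, 14.6 and 11.8 CPM in PLX3X_CD30 (-0.55 ± 0.13, adjusted p = 0.00881; 0.0480 with the offset), a call lost without IR_BMT replicate 3 or PLX3X_CD30 replicate 2. Dcx, the microtubule protein of migrating neuroblasts, was at 15.5, 16.1 and 15.4 CPM in IR_BMT and 16.2, 16.4 and 21.3 CPM in PLX3X_CD30 (adjusted p = 0.716). The tubulin genes and Sox11 moved in opposite directions. Islr2 and Tac2 were the other higher members, and Ccnd2, a cyclin of neural progenitors, the other lower one.

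Of 24 neuronal and synaptic genes 6 were higher and 1 lower, against 7.63% and 8.89% of all genes. With the offset 5 were higher, against 4.39%, and none lower. Camk2a, the kinase of excitatory synapses, was at 2204, 2128 and 2078 CPM in IR_BMT and 1630, 1600 and 1619 CPM in PLX3X_CD30 (0.40 ± 0.09, adjusted p = 0.00355; 0.0362 with the offset). Syn2, a synaptic vesicle protein, was at 745, 699 and 684 CPM in IR_BMT and 582, 590 and 611 CPM in PLX3X_CD30 (0.25 ± 0.05, adjusted p = 0.00305; 0.0212 with the offset). The calls of the scaffold gene Shank3 (0.45) and the NMDA receptor gene Grin1 (0.26) did not pass with it (0.229 and 0.310).
Immediate early genes, which respond within minutes to neuronal activity or stress, had 3 higher and no lower members of 19. Of all genes 7.63% were higher. With the offset 1 member was higher, against 4.39% of all genes. Jun, a subunit of the factor AP-1 (chr4:95049034-95052222, minus strand), was at 98.4, 91.4 and 101 CPM in IR_BMT, 70.1, 63.6 and 70.4 CPM in PLX3X_CD30 and 63.5, 57.9 and 72.5 CPM in NT (0.51 ± 0.07, adjusted p = 0.000199; 0.00156 with the offset). Ier2 (0.78, adjusted p = 0.00496) and Npas4 (1.09 ± 0.33, adjusted p = 0.0496) were the other higher members, with 0.0586 and 0.104 with the offset; Npas4 did not pass when any 1 of the 6 libraries was left out. In the 6-library fit 8 of 19 were higher, against 12.4% of all genes, and 7 with the offset added to it, against 10.7%.
Of markers of cortical and hippocampal neurons 3 of 16 were higher (Neurod2, Cux2 and Rasgrf2), against 7.63% of all genes. Rasgrf2 was the 1 that passed with the offset. Of 14 interneuron genes Cck, Htr3a and Kcnc1 were higher, against 7.63% of all genes, and Calb1 lower, against 8.89%. None of these passed with the offset. Of 10 tested hypothalamic genes Agrp, near 1 CPM or below, was higher without the offset (1.27, adjusted p = 0.0290). Its call was lost when any of 5 of the 6 libraries was left out.

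Of 17 core clock genes 7 were lower in IR_BMT and 1 higher, against 8.89% and 7.63% of all genes, with a median of -0.25. With the offset 4 were lower and 1 higher, against 1.18% and 4.39%, with a median of -0.14. Without IR_BMT replicate 1 the count of lower genes was 4. In the clock, the activators CLOCK, NPAS2 and BMAL1 drive the genes of their own repressors, among them PER, CRY and BHLHE41, through E-boxes. Per2 (chr1:91415982-91459324, minus strand) was at 36.9, 42.9 and 38.7 CPM in IR_BMT, 71.5, 76.6 and 50.8 CPM in PLX3X_CD30 and 45.4, 45.0 and 46.5 CPM in NT. IR_BMT lay below PLX3X_CD30 without overlap, and PLX3X_CD30 replicate 3 was the closest to the other groups. The log2 fold change was -0.75 ± 0.13 (adjusted p = 0.00187; -0.84 and 0.00478 with the offset).
Bhlhe41, a repressor that acts beside the PER proteins (chr6:145858243-145865558, minus strand), was at 11.7, 10.9 and 9.39 CPM in IR_BMT, 21.6, 19.9 and 16.2 CPM in PLX3X_CD30 and 27.6, 23.9 and 22.7 CPM in NT (-0.85 ± 0.11, adjusted p = 0.000132; 0.000581 with the offset). The order of the 3 groups differed between these genes, since PLX3X_CD30 was above NT in Per2 and below it in Bhlhe41. Ciart, a repressor of CLOCK and BMAL1, was at 13.5, 17.3 and 15.5 CPM in IR_BMT and 27.7, 26.4 and 17.3 CPM in PLX3X_CD30, where replicate 3 was level with the highest IR_BMT library (-0.62 ± 0.14, adjusted p = 0.00749 over 15 libraries and 0.0509 over 6). Cry1, Per3, Nr1d2 and Bhlhe40 were the other lower members, of which Per3 passed with the offset (-0.31, adjusted p = 0.0186).
The activators did not follow them. Npas2 was higher, at 106, 103 and 106 CPM in IR_BMT and 83.8, 86.0 and 91.6 CPM in PLX3X_CD30 (0.27 ± 0.07, adjusted p = 0.0177; 0.0789 with the offset), Clock was higher with the offset (0.37, adjusted p = 0.00619) and not without it (0.13, adjusted p = 0.220), and Arntl, which encodes BMAL1, had an adjusted p of 0.487. The labels give no hour of tissue collection, so a difference between the groups in that hour cannot be told apart from one in treatment.

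The promoters of Ciart, Bhlhe41 and Cry1 are shown because they are the lower members whose window held an E-box, CACGTG, which reads the same on both strands and is in capitals. The windows run as for Top2a (RefSeq, GRCm38.p6).
Ciart (chr3:95882179-95882478, minus strand): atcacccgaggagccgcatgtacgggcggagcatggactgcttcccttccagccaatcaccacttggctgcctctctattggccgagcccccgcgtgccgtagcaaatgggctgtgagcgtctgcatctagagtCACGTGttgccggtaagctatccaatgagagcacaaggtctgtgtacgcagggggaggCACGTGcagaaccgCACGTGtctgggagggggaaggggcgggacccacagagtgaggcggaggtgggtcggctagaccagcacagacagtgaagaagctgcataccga
Bhlhe41 (chr6:145865371-145865670, minus strand): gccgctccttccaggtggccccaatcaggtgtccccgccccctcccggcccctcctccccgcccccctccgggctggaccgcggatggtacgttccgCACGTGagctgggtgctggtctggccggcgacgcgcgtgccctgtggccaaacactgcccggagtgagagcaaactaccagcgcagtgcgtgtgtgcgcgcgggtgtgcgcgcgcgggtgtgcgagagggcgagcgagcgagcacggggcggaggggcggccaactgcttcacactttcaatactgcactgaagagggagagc
Cry1 (chr10:85185005-85185304, minus strand): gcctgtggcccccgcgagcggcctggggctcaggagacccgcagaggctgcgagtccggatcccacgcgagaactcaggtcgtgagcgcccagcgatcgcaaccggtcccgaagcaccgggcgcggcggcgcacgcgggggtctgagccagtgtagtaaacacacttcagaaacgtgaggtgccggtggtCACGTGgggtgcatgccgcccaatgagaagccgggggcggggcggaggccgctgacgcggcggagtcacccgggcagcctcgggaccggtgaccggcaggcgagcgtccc
The E-box lay in 3 of the 5 lower members with an entry in the table and in 2 of the 8 matched members that were not called, against 7.15% of all 32851 promoters. Nr1d2, Per3 and Npas2 had none in this window.

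Tsc22d3, the glucocorticoid-induced leucine zipper (chrX:140539528-140600659, minus strand), was at 69.2, 69.5 and 68.1 CPM in IR_BMT, 94.1, 92.5 and 100 CPM in PLX3X_CD30 and 87.9, 80.6 and 76.5 CPM in NT. IR_BMT lay below both other groups, by a log2 fold change of -0.47 ± 0.06 against PLX3X_CD30 (adjusted p = 6.17e-05; -0.35 and 0.00156 with the offset). It was 1 of 2 lower members among 15 glucocorticoid-responsive genes, against 8.89% of all genes. The other, Errfi1, an inhibitor of EGFR signalling, changed by -0.34 (adjusted p = 0.00289; 0.0918 with the offset).

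**Figure D5:**
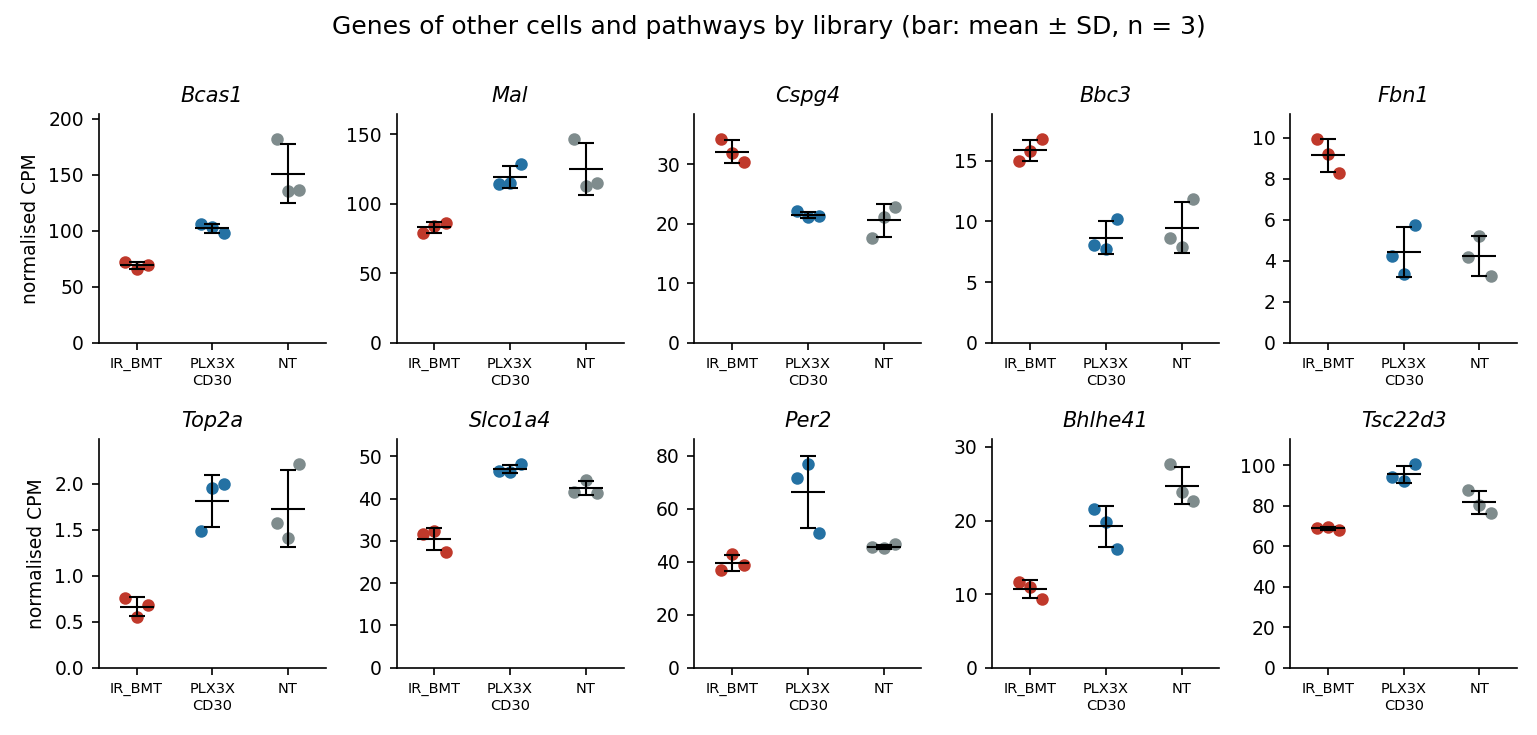
Normalised CPM (y axis, from 0) of 10 genes outside the macrophage lists in each library of IR_BMT, PLX3X_CD30 and NT, with the mean and SD of 3 libraries. In IR_BMT, Cspg4, Bbc3 and Fbn1 lie above and Bcas1, Top2a, Slco1a4, Bhlhe41 and Tsc22d3 below all libraries of both other groups.

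Metabolic lists gave mixed results. Of 22 genes of cholesterol synthesis and efflux 5 were higher and 3 lower, against 7.63% and 8.89% of all genes. With the offset 1 (Insig1) was higher, near the share of all genes (4.39%). Between 1 and 3 were higher when a library other than IR_BMT replicate 1 was left out. Srebf2, the regulator of the pathway, was higher (0.23, adjusted p = 0.00548; 0.459 with the offset), and Sc5d and Idi1 were lower (-0.23 and -0.63), Sc5d turning to 0.02 with the offset. Of 18 lysosomal genes Naglu, an enzyme that degrades heparan sulfate, was higher at 18.5, 20.7 and 20.9 CPM in IR_BMT and 14.5, 14.5 and 14.7 CPM in PLX3X_CD30 (0.46 ± 0.09, adjusted p = 0.00171; 0.0347 with the offset), and Lipa was lower (-0.31, adjusted p = 0.0341; 0.914 with the offset).
Results for the 13 mitochondrially encoded transcripts, which are poor in GC, depended on the offset. Without it 6 were lower, against 8.89% of all genes, and none higher (median -0.24). With it 2 were higher, against 4.39% of all genes, and none lower (median 0.11). Without IR_BMT replicate 2, IR_BMT replicate 3 or PLX3X_CD30 replicate 2, the lower ones numbered 3, 2 and 2. mt-Co1 was at -0.24 without and 0.11 with the offset, while mt-Nd1 was at -0.65 and -0.28 and mt-Cytb at -0.37 and -0.02. The Y-linked genes Ddx3y, Uty and Kdm5d, also poor in GC, were lower without the offset (-0.32, -0.40 and -0.27) and none passed with it, where Ddx3y was at 0.15 and Uty at 0.07. They were expressed in every library of both groups, and Xist stayed at or below 0.24 CPM.
Blood cell lists held few detected genes. Of 9 tested B lymphocyte genes Ebf1, also a gene of pericytes, was lower (-0.65, adjusted p = 0.0209; 0.186 with the offset), and Ighm, the heavy chain of IgM, was at 41.9, 40.9 and 31.0 CPM in IR_BMT and 41.5, 39.4 and 35.8 CPM in PLX3X_CD30 (adjusted p = 0.911). None of 6 genes of T and natural killer cells, 6 of neutrophils and 7 of erythrocytes was called over 15 libraries by edgeR or DESeq2, and 2, 0 and 1 had an unadjusted p under 0.05. In the 9-library fit 1 T and natural killer gene was lower, and without IR_BMT replicate 1 there was 1 higher erythrocyte gene. Of 13 ependymal genes Tm4sf1 was lower (-0.39, adjusted p = 0.0389; 0.612 with the offset).

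Across all genes, the 15 largest rises whose mean log2 CPM reached 1 and with no overlap between the groups included 9 protein-coding genes by the deposited gene types, and 8 of the 15 also passed with the offset. Crybb1, Fcrls and Fbn1 were among them. Amn, the amnionless subunit of the cubilin receptor, was at 11.5, 17.1 and 15.0 CPM in IR_BMT and 7.28, 4.77 and 7.91 CPM in PLX3X_CD30 (1.13 ± 0.17, adjusted p = 0.000355; 0.00190 with the offset). Ccn1, a matricellular protein that responds to growth factors, was at 34.3, 29.6 and 29.3 CPM in IR_BMT and 16.1, 15.5 and 12.0 CPM in PLX3X_CD30 (1.09 ± 0.21, adjusted p = 0.00404; 0.0204 with the offset). Both genes were higher in every library of IR_BMT.
Gm5206, a transcribed processed pseudogene, had the largest rise of these, at 6.33, 6.32 and 6.14 CPM in IR_BMT and 1.85, 1.72 and 1.75 CPM in PLX3X_CD30 (1.82 ± 0.43, adjusted p = 0.0104; 0.00814 with the offset). As a pseudogene it may share reads with its parent gene and is uncertain. The same holds for the processed pseudogenes Gm12896 and Gm12895, which did not pass with the offset. Erdr1 did not pass with it either; it is a lincRNA in the deposited table and protein coding in GENCODE. Gm37194 (1.23), Ankrd60 (1.10), Cebpb (0.96), a transcription factor of myeloid cells and other types, and the miRNA gene Gm25911 (0.89) were also among the 15, as was Npas4. Of these Gm37194 passed with the offset (1.37, adjusted p = 0.00190).

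The largest falls were of another kind. Of 15 genes, 3 were protein coding, 10 were annotated as TEC (transcripts to be experimentally checked), 8 of these lay inside a protein-coding gene, and 9 of the 15 also passed with the offset. C230071H17Rik, inside Auts2 (chr5:131882966-131885938, minus strand), was at 0.914, 1.03 and 0.734 CPM in IR_BMT and 4.22, 2.53 and 3.77 CPM in PLX3X_CD30 (-1.97 ± 0.33, adjusted p = 0.000716; 0.00511 with the offset), while Auts2 itself changed by -0.10 (adjusted p = 0.305). C130089K02Rik, inside Maml3, changed by -1.59 ± 0.28 (adjusted p = 0.00106), and Maml3 by 0.42 (adjusted p = 0.0820). Gm42974, inside Ank2, changed by -1.10 (adjusted p = 0.00166), and Ank2 was higher by 0.22 (adjusted p = 0.0131). Of these hosts, Auts2 was lower with the offset (-0.22, adjusted p = 0.0444). Kcnip4, host of Gm42770, was lower without it (-0.34, adjusted p = 0.00697), by less than the transcript inside it.
Of all 1058 TEC transcripts tested 2 were higher and 106 lower, against 7.63% and 8.89% of all genes. Lower calls were thus near that share, while the median log2 fold change was -0.52. With the offset 1 was higher and 25 lower (median -0.24), against 4.39% and 1.18% of all genes. The 787 transcripts that lay inside a tested protein-coding gene had a median of -0.61 with 87 lower and none higher. The 502 genes that hold them had a median of -0.06 with 37 higher and 78 lower. With the offset these medians were -0.32 and 0.08. Without it, lower calls made up a larger share of the hosts than of the transcripts inside them. Reads from such a transcript and from an intron of its host cannot be told apart. The libraries do not mark strand, and the named TEC transcripts inside a protein-coding gene lay on the strand of that gene. Of 2424 processed pseudogenes 62 were higher and 13 lower (39 and 2 with the offset), both fewer than the shares of all genes (7.63% and 8.89%) would give.
The protein-coding members of the 15 falls were Ido1, Zfp458 and Sh3rf2. Ido1, an enzyme that degrades tryptophan and responds to interferon, was at 1.13, 1.11 and 1.39 CPM in IR_BMT and 2.56, 2.97 and 2.18 CPM in PLX3X_CD30 (-1.08 ± 0.25, adjusted p = 0.00638; 0.0305 with the offset). Zfp458, a zinc finger gene, changed by -1.06 ± 0.16 (adjusted p = 0.000336; 0.0108 with the offset). Sh3rf2, a ubiquitin ligase, was at 7.91, 6.60 and 10.4 CPM in IR_BMT and 16.3, 23.7 and 11.0 CPM in PLX3X_CD30, and did not pass with the offset (0.0538) or in the 6-library fit (0.114). The rest were Gm42616, Gm42770, Gm42992, Gm37297, 9630010A21Rik, Gm19445, Gm45179, 2310075C17Rik and Gm39043, with changes between -1.34 and -1.04.

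In all, 122 genes were named by rule, and 106 of them were called. That count is not a result, because the rule picked genes that were already called, apart from a fixed set of genes. Of the 106, 36 passed in all 15 alternatives, 18 higher and 18 lower in IR_BMT. The higher ones include Crybb1, Fcrls, Fbn1, Bbc3, Cspg4, Jun, Naglu, Ntsr2, Fgfr3, Camk2a, Syn2, Tubb3 and Tubb2b, and the lower ones Bcas1, Mal, Mog, Slco1a4, Ocln, Ly6c1, Bhlhe41, Per2, Tsc22d3 and Top2a. Against NT and without the offset, 3291 genes were higher and 3365 lower in IR_BMT, and 1032 higher and 400 lower in PLX3X_CD30. These comparisons share the NT libraries. Against the NT mean, the highest and lowest GC groups differed by 0.518 to 0.773 in IR_BMT and by 0.0666 to 0.127 in PLX3X_CD30. The part of this trend in the counts against NT was not tested.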

How the data were processed

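Bulk RNA-seq covered 15 libraries of frozen mouse forebrain, 3 per group. The labels' protocols name a SMARTer Ultra Low kit for cDNA, which does not mark strand. The authors deposited raw counts per gene and the same counts as CPM; the deposited CPM equalled count over library total within 5e-07, and the tests used the counts. DRAGEN, mm10 and DESeq2 are named in the submitters' processing notes; what each was used for, its version, the annotation and any strand option were not stated in the labels read here. That table held 55774 rows for 55487 identifiers, and 287 repeats with identical counts were removed. Even numbers made up 70.6% to 74.7% of low counts (1 to 4); the reason was not tested.

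Groups came from the library names, replicate numbers from the titles. The test was edgeR 4.0.16 under R 4.3.3 (TMM, filterByExpr, robust quasi-likelihood, 1 model over all 15 libraries, two-sided, Benjamini-Hochberg over all genes, threshold 0.05); standard errors are fold changes (log2) divided by the root of F. The biological coefficient of variation was 12.1%. The offset came from a loess (span 0.3) of each library on length and GC content of the longest transcript in GENCODE vM21 (mm10), known for 99.9% of genes. DESeq2 was 1.42.0. The procedure was run on simulated counts with the same spread for every gene and a GC trend that was absent or linear. That run cannot show how the fits behave on these libraries, whose spread and trend differ.

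Alternatives were DESeq2, RLE factors, no filter or a stricter one (CPM of at least 1 in 3 libraries), fits on 6 or 9 libraries, the replicate number as a block, the offset and leaving out each library; the 6-library fit with the offset was added after seeing the data. The 42 lists (789 genes, 732 tested) and the members were chosen with earlier results of these data known. Named genes were the 15 largest rises and falls among called genes whose mean log2 CPM reached 1 with no overlap between groups, up to 4 called members of each list with the smallest adjusted p, and 20 fixed genes. Genes named outside this rule, as members behind a small count or to describe a list, were chosen after their values were seen. Promoters are from RefSeq (GRCm38.p6). The values of some called genes are not reported here.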

Additional observations from a re-analysis of the deposited data

How the results depend on the processing

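In all, 3598 genes were called, against 4197 with DESeq2, 3510 with RLE factors, 3736 without a filter on low counts, 3900 with the stricter filter, 4861 in the 6-library fit and 2688 in the 9-library fit. The length and GC offset changed most: 1214 genes in all, 956 higher and 258 lower, and in the 6-library fit with offset 552 lower. Lower or higher members fell with the offset to 3 (myelin, lower), 2 (oligodendrocyte precursors, higher), 1 (p53 targets, lower; 2 in the 6-library fit with offset and 1 in the 9-library fit), 1 (mitosis, lower; 3 with DESeq2), 4 (clock, lower), 4 (endothelium, lower), 1 (cholesterol, higher) and 0 (mitochondrially encoded, lower, in both fits with offset). Higher members of the neurogenesis list numbered 9 without the filter, and of the synaptic list 10 in the 6-library fit with offset. With the offset in the 15-library fit and in the 6-library fit, the log2 fold change reversed for Sc5d (0.022 and 0.018), Col4a2 (-0.0015 and -0.0057), mt-Co1 (0.11 and 0.11), Rrm2b (0.064 and 0.059), Ddx3y (0.15 and 0.14) and Uty (0.067 and 0.055), and for Kcnc1 in the 6-library fit (-0.0029). Leaving out each library gave 1975 to 3528 genes, 969 to 1625 higher (the fewest without IR_BMT replicate 2) and 1006 to 1903 lower; lower members ran from 4 to 8 in the myelin list, 0 to 1 in p53 targets, 3 to 5 in mitosis, 4 to 8 in the clock, 6 to 9 in endothelium and 2 to 6 in the mitochondrial list, and higher members from 2 to 4 in precursors, 2 to 3 in neurogenesis, 4 to 7 in the synaptic list and 1 to 5 in cholesterol. Replicate numbers did not pair the libraries (correlations of same-numbered deviations 0.00231, -0.0265 and 0.0012); with the replicate block 3422 genes were called, 1591 higher and 1831 lower. Of 106 named genes called, 42 passed with the offset, 71 to 90 without 1 library, 91 in the 9-library fit and 103 with DESeq2. The cause of these changes was not tested. With 3 libraries a group of 33304212 to 39549891 counts, genes below about 1 CPM, many mitosis and lymphocyte genes among them, rest on few counts.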
